A study of Mus musculus with 9 samples.

Results

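The resting expression profile of bone-marrow-derived macrophages (BMDMs) was taken from the 3 vehicle (Veh) libraries of an RNA-seq experiment with 9 libraries in all, 3 each of Veh, LPS and T0+LPS. The libraries were chosen by their label and not by their levels, which were not compared with those of the stimulated groups. Earlier results of these data were known when the libraries and the gene lists were chosen. Marrow from C57BL/6J mice, female and 8 to 10 weeks old according to the methods of the study, was differentiated for 7 days in medium with 10% FBS and 20% L-cell conditioned medium, which supplies the growth factor M-CSF. The cells were then kept without serum for 1 day in 4% L-cell medium, which all 9 libraries share, and the Veh cultures received DMSO for 3 hr and no LPS. The methods describe replicates as individually differentiated cultures, while the labels do not tie a library to an animal. It is not stated whether Veh cultures were harvested together with the LPS cultures.

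Macrophages are phagocytes that engulf dying cells, microbes and lipoproteins and break them down in lysosomes, acidic organelles filled with hydrolases. Their survival depends on signalling from M-CSF through its receptor Csf1r, and the transcription factor PU.1, encoded by Spi1, is required for the lineage. Cholesterol taken up with lipoproteins and membranes is either stored as esters in droplets or exported through transporters to Apoe and other acceptors. Resting macrophages also secrete complement, chemokines and enzymes that cut the extracellular matrix, the protein mesh around cells.

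The 3 Veh libraries held 16467983, 13299044 and 15086484 counted reads for replicates 1, 2 and 3. Levels are given per library as counts scaled to the library total (CPM) or, where genes are compared with each other, as reads scaled to the library total and to transcript length in kilobases (RPKM). Reads on bases shared by more than 1 RefSeq transcript row were not counted, so genes with several transcripts can appear low or absent without being so. A gene was called measured when the bases of its own came to at least 50% of its longest row, which 19072 of 24061 gene symbols (79.3%) met. A gene was called detected at 1 CPM or more in each library, which equals 16.5, 13.3 and 15.1 reads, and at the floor when every library held at most 3 reads. Of the measured genes, 8098 were detected, which is 42.5%, and 9334 were at the floor, which is 48.9%. Of the same 19072 genes, 725, or 3.8%, had a mean over 100 RPKM, and 42 of these had a mean over 1000 RPKM. How the aligner placed reads on near-identical copies is not given in the sources used here, so levels of Ftl1, Tmsb4x, Eef1a1, Actb, Tpt1, the ribosomal protein genes, the MHC class I genes and Lyz2 beside Lyz1 are uncertain in that respect.

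A small number of genes made up a large share of the counted reads. Genes with few or no bases of their own added little or nothing to this total, whatever their true level. The shares here and for the gene lists are therefore of counted reads, without scaling to length, and not of all transcripts. The 10 most abundant genes took 13.9 ± 0.146% of all counts (SD, n = 3), the top 100 took 30.9 ± 0.0583% and the top 1000 took 64.9 ± 0.0458%. Lyz2, the lysozyme of macrophages (mm10 chr10:117277541-117282272, minus strand), had the highest level per length, at 22651, 20416 and 20782 RPKM in replicates 1, 2 and 3. Replicate 1 was the highest, and the mean was 21283 ± 1199 RPKM (SD, n = 3). Ftl1, the ferritin light chain that stores iron, followed with 10495, 9929 and 10343 RPKM. Apoe, the apolipoprotein that accepts exported cholesterol (chr7:19696244-19699166, minus strand), had 9988, 10299 and 10167 RPKM. The ranges of Ftl1 and Apoe overlapped, so their order was not resolved, while all 3 Lyz2 libraries lay above both genes. Ctsd, the aspartic protease of lysosomes, reached 8138, 8041 and 8126 RPKM. Gpnmb, a glycoprotein of lysosomes and melanosomes, reached 5949, 5969 and 5896 RPKM, and the cysteine protease Ctsb 4751, 4723 and 4804 RPKM. No library of one of these 3 genes overlapped with a library of another.

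**Figure D1:**
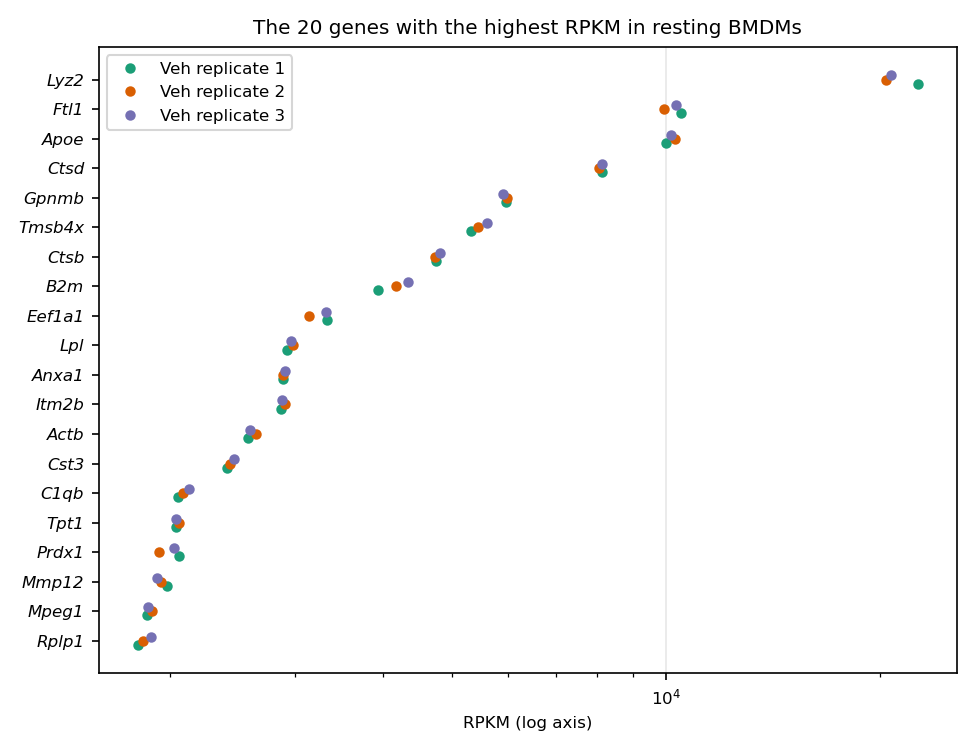
The 20 measured genes with the highest mean RPKM, in descending order, with 1 point for each of the 3 Veh libraries on a log axis. Lyz2 stands at 20416 RPKM or more in every library, Ftl1 and Apoe overlap between 9988 and 10299 RPKM, and the lowest of the 20, Rplp1, lies between 1803 and 1885 RPKM.

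Between Gpnmb and Ctsb stood Tmsb4x, which binds free actin, at 5442 ± 144 RPKM, and after Ctsb came B2m, the light chain of MHC class I, at 4139 ± 200 RPKM (SD, n = 3 each). Per kilobase of its unshared bases alone, Ctsb would stand above Tmsb4x, at 5688 RPKM. The order went on with the translation factor Eef1a1 at 3266 ± 106 RPKM, the lipoprotein lipase gene Lpl at 2957 ± 30.3 RPKM and Anxa1, a phospholipid-binding protein, at 2894 ± 9.65 RPKM. Itm2b, Actb, the cystatin Cst3, the complement gene C1qb, Tpt1, the peroxiredoxin Prdx1, the elastase Mmp12, the pore-forming protein Mpeg1 and the ribosomal protein gene Rplp1 completed the top 20. Of the 19 neighbouring pairs in this order, 13 had no overlap between their libraries and 6 overlapped, among them Anxa1 with Itm2b and Mmp12 with Prdx1. Housekeeping functions and macrophage functions were mixed: of the top 100 genes by RPKM, 30 encode ribosomal proteins, 13 belong to the lysosomal list, 11 to the identity list and 10 to the surface list described here.

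By reads alone, without scaling to length, the order changed. Ctsb at 22574 ± 194 CPM, Gpnmb at 22551 ± 143 CPM and Lyz2 at 22496 ± 1267 CPM (SD, n = 3 each) lay within the spread of Lyz2, so each took about the same share of a library. Ctsd at 15830 ± 103 CPM, Apoe at 12699 ± 196 CPM and Lpl at 11973 ± 123 CPM came next. Long transcripts entered the top 20 on this scale: Ahnak, a large scaffold protein, had 3602 ± 13.5 CPM but 199 RPKM, and the lipoprotein receptor Lrp1 had 3372 ± 82.9 CPM but 226 RPKM. Slc6a6, the taurine transporter, had 3293 ± 55.6 CPM and 534 RPKM.

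The macrophage label was checked against its markers. Csf1r had 1096, 1062 and 1074 RPKM in replicates 1, 2 and 3, which made it the gene with the rank of 36 among measured genes by RPKM and 13 by CPM. Adgre1, which encodes F4/80 and stands in the count table under its older symbol Emr1, had 924, 917 and 938 RPKM. Cd68, a glycoprotein of late endosomes, was measured on 434 of 1247 bases and is therefore not in the counts of measured genes. Over its whole length it had 500, 481 and 481 RPKM, and over its unshared bases alone the mean was 1401 RPKM. Itgam, which encodes CD11b, has 3 unshared bases and 0 reads in every library, so the table cannot measure it. The coefficient of variation between libraries was 1.61% for Csf1r, 1.14% for Adgre1 (Emr1) and 5.63% for Lyz2. The marker check rests on these 3 genes and on Cd68.

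All 25 measured genes of the 42 in the identity list were detected, beside 42.5% of all measured genes, and 16 of them had a mean over 100 RPKM, beside 3.8%. C1qb and C1qc, chains of the first complement component, had 2088 ± 38.8 and 1482 ± 29.1 RPKM (SD, n = 3 each), and Mpeg1 had 1872 ± 16.03 RPKM. Tyrobp, the adaptor that carries signals from many myeloid receptors, had 1762 ± 32.3 RPKM. Fcer1g, the common gamma chain of Fc receptors, had 1336, 1331 and 1344 RPKM. The lineage transcription factors were led by Spi1 at 474, 472 and 480 RPKM, followed by Irf8 at 176 ± 3.26 RPKM. Maf at 81.4 RPKM, Egr2 at 78.7 RPKM and Bach1 at 51.8 RPKM were lower, and Klf4 was the lowest measured factor at 5.36 ± 0.426 RPKM. Of the 22 factors listed, 13 could not be measured, including Cebpa with 3 unshared bases and Cebpb with 0.

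Markers of other cells were low. In 9 lists for lymphocytes, granulocytes, dendritic cells, erythroid cells and platelets, progenitors and stroma, 59 of 84 genes were measured. Of these 59, 5 were detected, beside 42.5% of all measured genes, and 43 were at the floor, beside 48.9%. Of the other genes, 21 had too few unshared bases, 3 had none and 1 had no row. Among them were the globin genes, Ly6g, S100a9, Kit and Cd34, so these markers were not checked. The summed level of those 59 genes ranged from 308 to 326 RPKM between libraries, and 278 RPKM of it came from Il7r. Il7r, the receptor for interleukin 7, had 288, 280 and 266 RPKM, whereas the T cell receptor genes Cd3d, Cd3e and Cd3g and the surface genes Cd2 and Thy1 had 0 reads in all libraries. Procr, the protein C receptor, had 27.4 ± 2.91 RPKM, while Mecom, another gene of the progenitor list, had 0 reads. The remaining 3 detected genes were Kdr at 2.77 RPKM, Cd79b at 1.82 RPKM and Cd4 at 1.15 RPKM. The B cell genes Pax5 and Blk and the neutrophil granule genes Mpo, Elane and Ctsg had 0 reads. S100a8, a calcium-binding protein of neutrophils, had 2.01, 2.88 and 3.72 RPKM and missed the detection limit in replicate 1. In libraries from whole cultures, few cells of a type and little RNA per cell cannot be told apart.

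**Figure D2:**
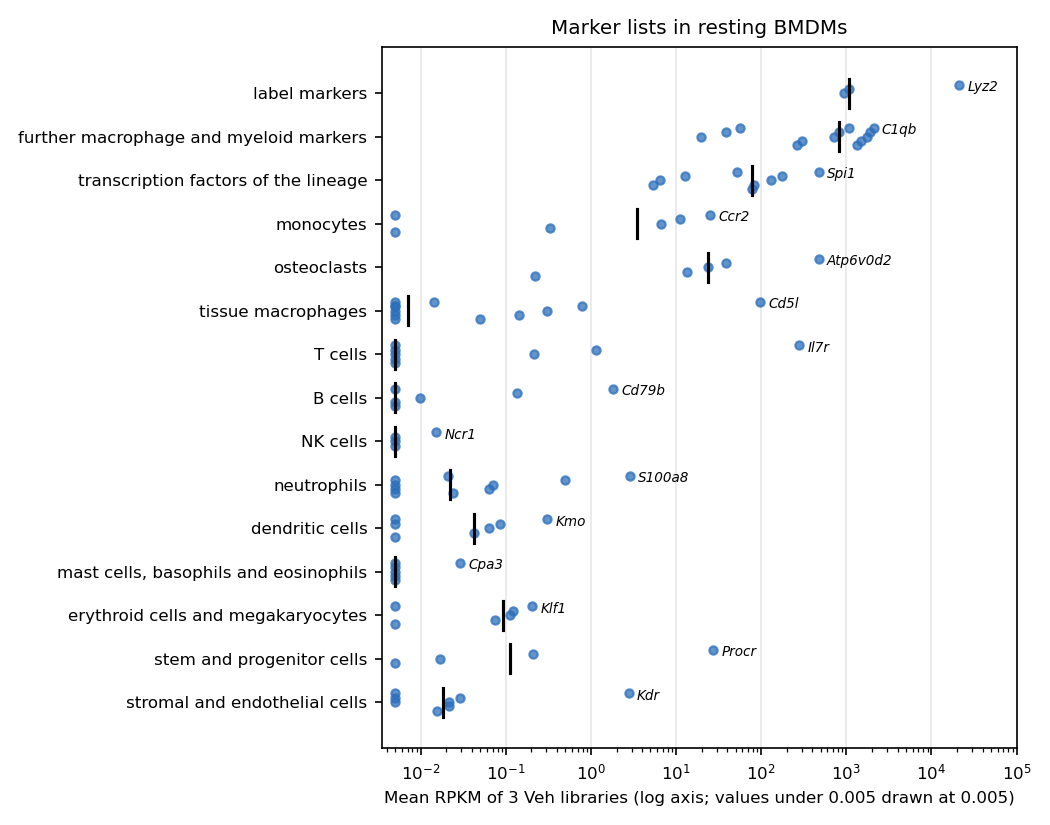
Mean RPKM over the 3 Veh libraries on a log axis for measured genes of the macrophage lists and of 12 lists for other cells and relatives of the macrophage, with 1 point per gene, a black bar at the list's median and the highest gene named. The 3 macrophage lists have medians of 1077, 827 and 78.7 RPKM, while the medians of the 9 lists outside the lineage lie at or under 0.112 RPKM, and values under 0.005 RPKM are drawn at 0.005.

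Relatives of the macrophage were mixed. Of the monocyte list, 3 of 6 measured genes were detected, beside 42.5% of all measured genes. Ccr2, the receptor for monocyte chemoattractants, had 21.1, 29.7 and 23.9 RPKM, the sialoglycoprotein Spn had 11.1 ± 1.26 RPKM and Cx3cr1 had 6.67 RPKM, and Ly6c2 and Plac8 had 0 reads. Of 12 genes that mark macrophages of particular tissues, Cd5l, a secreted scavenger protein, had 86.5, 102 and 101 RPKM and P2ry12 had 0.777 RPKM. These were the 2 of 12 detected, beside 42.5% of all measured genes, and the other 10 missed the limit. At the floor were 8 of the 12, among them Timd4, Clec4f and Gata6, beside 48.9% of all measured genes. In the osteoclast list, 4 of 5 measured genes were detected, again beside 42.5%. Atp6v0d2, a subunit of the proton pump that is also used in osteoclast fusion, had 477, 486 and 459 RPKM, Ctsk had 38.3 ± 2.60 RPKM, Tnfrsf11a (RANK) had 23.8 ± 1.29 RPKM and Mmp9 had 13.5 ± 0.530 RPKM. Ocstamp, a protein of osteoclast fusion, had 0.217 RPKM.

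Of 77 measured genes in the surface list, 73 were detected, beside 42.5% of all measured genes, and 38 were over 100 RPKM, beside 3.8%. Among Fc receptors, which bind antibodies on targets, Fcer1g was followed by Fcgr3 at 602, 583 and 575 RPKM. The neonatal receptor Fcgrt had 61.7 ± 2.39 RPKM, the high-affinity receptor Fcgr1 had 46.8, 64.1 and 57.2 RPKM with its lowest level in replicate 1, and Fcgr4 had 38.7 ± 1.53 RPKM. Of the integrins, Itgb2, the beta chain shared by the leukocyte integrins, was at 928, 949 and 949 RPKM, above Itgb1 at 214 ± 3.48 RPKM and Itgax (CD11c) at 138 ± 5.32 RPKM. Itgb2 therefore stood at 942 ± 11.7 RPKM while its partner Itgam could not be measured. The vitronectin receptor chain Itgav had 34.0 ± 1.35 RPKM and Itgb3 had 2.63 ± 0.106 RPKM, the lowest of 8 measured integrins.

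Receptors for microbial products differed in level by several orders of magnitude. Cd14, the coreceptor that delivers LPS to TLR4, had 722, 697 and 736 RPKM, and Clec7a (dectin-1), which binds fungal glucans, had 684, 723 and 704 RPKM. Tlr4 itself was at 59.1, 55.7 and 54.2 RPKM, below Cd180 at 191 ± 6.86 RPKM, Tlr13 at 180 ± 0.568 RPKM and Tlr8 at 125 ± 5.27 RPKM. Tlr2 had 30.6 ± 1.00 RPKM, Tlr9 18.9 ± 1.67 RPKM and Tlr3 4.73 ± 0.415 RPKM. Tlr5, the flagellin receptor, had 0.0656 RPKM and was the only 1 of 12 measured receptors under the detection limit. Myd88, the adaptor of most of these receptors, had 63.1, 62.9 and 63.6 RPKM, and the TLR4 cofactor Ly96 could not be measured.

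Among scavenger receptors, which take up modified lipoproteins and debris, Lrp1 at 226 ± 5.57 RPKM and Stab1 at 200 ± 8.71 RPKM were the highest. Mrc1, the mannose receptor, had 114, 117 and 109 RPKM, and Msr1, scavenger receptor A, had 33.8 ± 0.913 RPKM. Marco at 0.304 RPKM and Olr1 at 0.0884 RPKM missed the limit. Of the genes for recognition of apoptotic cells, the bridging proteins Gas6 at 202 ± 5.23 RPKM and Pros1 at 33.1 ± 1.65 RPKM exceeded their receptor Mertk, which had 19.4, 19.8 and 19.4 RPKM. Timd4 had 0 reads, and Axl, Trem2 and Cd36 had too few bases of their own to be measured.

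All 14 measured cytokine and growth factor receptors were detected, beside 42.5% of all measured genes. After Csf1r came the GM-CSF receptor chains Csf2ra at 371 ± 9.64 RPKM and Csf2rb at 217 ± 4.19 RPKM, and between them the TNF receptor Tnfrsf1b at 327 ± 5.73 RPKM. The interferon-gamma receptor chains Ifngr1 and Ifngr2 had 135 ± 2.84 and 141 ± 2.99 RPKM, and the chains for type I interferon, Ifnar1 and Ifnar2, had 35.4 ± 0.921 and 19.4 ± 1.32 RPKM. All 11 measured chemoattractant and purine receptors were detected, beside the same 42.5%, with C3ar1, the receptor for complement fragment C3a, at 605 ± 14.2 RPKM and the ATP-gated channel P2rx4 at 327 ± 2.97 RPKM. Ccr2 at 24.9 ± 4.38 RPKM exceeded the fractalkine receptor Cx3cr1 at 6.67 ± 0.472 RPKM.

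Genes of antigen presentation were expressed at rest. The class I genes B2m and H2-K1 had 4139 ± 200 and 1050.3 ± 44.6 RPKM (SD, n = 3 each). The class II genes were lower, with H2-Aa at 303, 313 and 296 RPKM, H2-Ab1 at 285, 273 and 267 RPKM and H2-Eb1 at 124, 124 and 125 RPKM. The costimulatory genes Cd86 at 7.15 ± 0.862 RPKM and Cd80 at 2.38 ± 0.325 RPKM were the lowest of the 8 measured members. Cd274, which encodes the inhibitory ligand PD-L1, had 46.2 ± 0.662 RPKM. The tetraspanin Cd9 had 619 ± 15.9 RPKM and the inhibitory lectin Clec12a had 341 ± 8.37 RPKM.

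The lysosomal list had the highest summed level of the lists described here, at a mean of 37797 RPKM. The identity list came next, at 36145 RPKM from 25 measured genes. Such sums depend on how many genes a list holds and on which ones, and Gpnmb alone gave 5938 RPKM of the lysosomal sum. All 72 measured genes of 89 were detected, beside 42.5% of all measured genes, and 45 had a mean over 100 RPKM, beside 3.8%. The summed level of the 72 genes was 37847, 37654 and 37891 RPKM in replicates 1, 2 and 3. They took 10.5 ± 0.0223% of all counts (SD, n = 3). Some genes stand in more than 1 list, so the lists' sums cannot be added. Among the proteases, Ctsd and Ctsb were followed by the exopeptidase Ctsz at 1474 ± 35.7 RPKM, Ctsl at 1046 ± 32.0 RPKM and the asparaginyl endopeptidase Lgmn at 778, 782 and 782 RPKM. The levels of the 14 measured proteases reached down to Ctse at 0.938 ± 0.183 RPKM, and Ctss could not be measured.

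The proton pump and the other hydrolases were more even. The 14 measured V-ATPase subunits, which acidify the lysosome, all lay between 93.7 and 631 RPKM, with a median of 251 RPKM. Atp6v1b2 at 638, 621 and 634 RPKM was the highest, followed by Atp6v0b at 511 ± 11.98 RPKM and the isoform Atp6v0d2 at 474 ± 13.7 RPKM, which exceeded its ubiquitous counterpart Atp6v0d1 at 124 ± 0.520 RPKM. The median ratio of the highest to the lowest library was 1.04 in the V-ATPase list. Hexa, whose product removes sugars from gangliosides, was the highest glycosidase at 1134 ± 19.5 RPKM, above Gusb at 535 ± 4.32 RPKM. Sulfatases were the lowest lysosomal class, with a median of 36.3 RPKM. Of the membrane proteins, Lamp1 at 1363 ± 4.90 RPKM exceeded Lamp2 at 138 ± 2.14 RPKM, and Laptm5 had 1071 ± 23.2 RPKM. The cholesterol exporters of the lysosome, Npc2 in the lumen and Npc1 in the membrane, had 581 ± 24.1 and 107 ± 3.16 RPKM. Grn, the progranulin gene, had 1128 ± 34.7 RPKM.

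Lysosomal genes are known to share an E-box, called the CLEAR element, that binds the transcription factor TFEB and its relatives. The letters TCACGTGA, which read the same on both strands, were searched in RefSeq promoters of build GRCm38.p6 from 250 bases before to 50 bases after each gene's start, with a promoter matched for 16754 of 24061 symbols. They were present in 11 of 71 lysosomal promoters, or 15.5%, beside 1.31% of all promoters and 2.09% of those of detected, measured genes. None of 34 identity, 82 surface, 66 lipid or 32 matrix promoters held them. Capitals mark the E-box in the lines that follow, which show it in the promoters of the most abundant of these genes, of V-ATPase subunits and of further lysosomal genes, each 5′ to 3′ on the strand of the gene.
Ctsd, chr7:142387909-142387936, minus strand: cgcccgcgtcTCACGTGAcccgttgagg
Atp6v1a, chr16:44139374-44139401, minus strand: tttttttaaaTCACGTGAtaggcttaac
Atp6v0e, chr17:26676388-26676415, plus strand: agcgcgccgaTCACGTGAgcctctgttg
Atp6v0d1, chr8:105566051-105566078, minus strand: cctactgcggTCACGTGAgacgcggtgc
Dpp7, chr2:25356389-25356416, minus strand: cgccagactaTCACGTGAtgctgccccg
Sumf1, chr6:108185578-108185605, minus strand: gcaccacaggTCACGTGAtctccatggg
Mcoln1, chr8:3500463-3500490, plus strand: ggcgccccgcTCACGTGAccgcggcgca
In Ctsd the E-box lay 99 to 92 bases before the start, in Atp6v1a 132 to 125 bases and in Mcoln1 46 to 39 bases before it. The genes with the E-box were not uniform in level. Ctsd had 8102 ± 52.6 RPKM, Atp6v1a 417 ± 9.64 RPKM and Atp6v0e 344 ± 2.35 RPKM, whereas the sulfatase activator Sumf1 had 72.6 ± 1.19 RPKM and the lysosomal calcium channel Mcoln1 had 52.8 ± 1.73 RPKM. The promoters of Gpnmb and Lamp1 did not hold these letters, and Ctsb had no matched promoter. A match is a description of the sequence, and binding was not measured here.

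The letters GAGGAAGT, a core that PU.1 can bind, were searched on either strand of the same windows. They stood in 3 of 34 identity promoters (8.82%), those of C1qc, Cd53 and Ctss, in 7 of 82 surface (8.54%), 6 of 66 lipid (9.09%), 4 of 71 lysosomal (5.63%) and 1 of 32 matrix promoters (3.13%), beside 3.21% of all promoters. The share was thus not higher in the identity and surface lists than in the lipid list. The sterol response letters TCACNCCAC were found in 1 of 18 promoters of sterol synthesis genes, that of Hmgcs1, beside 1.15% of all promoters. They also stood in 3 of 71 lysosomal, 2 of 82 surface, 1 of 34 identity, 1 of 66 lipid and 0 of 32 matrix promoters, so few matches lie behind each share.

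In the lipid list, 64 of 68 measured genes were detected, beside 42.5% of all measured genes. Cholesterol efflux and lipoprotein genes were led by Apoe at 10151 ± 157 RPKM and the phospholipid transfer protein Pltp at 960 ± 29.8 RPKM (SD, n = 3 each). The exporters Abcg1 at 178, 178 and 178 RPKM and Abca1 at 80.1, 81.2 and 81.5 RPKM, both known targets of the liver X receptor (LXR), were expressed without an added agonist. Mylip, a ubiquitin ligase and known LXR target, had 38.3 ± 0.675 RPKM. The receptors LXRα and LXRβ, encoded by Nr1h3 and Nr1h2, had 315 and 4 unshared bases and could not be measured. Among uptake genes, Lpl (chr8:68880555-68906932, plus strand) had 2926, 2986 and 2959 RPKM, far above the fatty acid carrier Fabp4 at 210 ± 6.95 RPKM. Plin2, the coat protein of lipid droplets, had 960, 895 and 915 RPKM. Nceh1, which splits cholesterol esters, and Soat1, which makes them, were at 256 ± 5.38 and 217 ± 6.22 RPKM, and the 3 libraries of Nceh1 all lay above those of Soat1. Dgat1, which makes triglycerides, had 16.03 ± 0.910 RPKM, and Dgat2 missed the limit at 0.374 RPKM.

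Genes of lipid synthesis were lower. All 19 measured genes of sterol synthesis and its control were detected, beside 42.5% of all measured genes. The sterol genes had a median of 9.70 RPKM and none over 100 RPKM. Msmo1 had the highest level at 48.8 ± 2.90 RPKM, next to the transcription factor Srebf2 at 46.5 ± 3.45 RPKM. The squalene epoxidase gene Sqle had 13.8, 15.3 and 13.1 RPKM, and Idi1 had 1.62 ± 0.353 RPKM. In replicate 2 these genes had a median ratio of 1.07 to their mean over libraries, beside 0.981 and 0.953 in replicates 1 and 3. Fatty acid synthesis and desaturation had a median of 11.95 RPKM, with Fads1 at 59.6 ± 1.41 RPKM, Srebf1 at 34.8, 38.0 and 33.5 RPKM, Fasn at 11.95 ± 1.05 RPKM, Scd2 at 13.6 ± 1.54 RPKM and Scd1 at 1.53 ± 0.0318 RPKM. The 7 measured genes of fatty acid oxidation had a median of 57.5 RPKM, and 5 of them, Acadl, Cpt1a, Acadm, Hadha and Acadvl, lay between 50.7 and 64.9 RPKM.

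Of the eicosanoid and phospholipid enzymes, Pla2g7, which cleaves platelet-activating factor, had 353, 312 and 333 RPKM, and Alox5ap, the partner of 5-lipoxygenase, had 324 ± 13.1 RPKM. Alox5 itself was at 1.47 ± 0.268 RPKM. Ptgs1, the constitutive cyclooxygenase, had 11.6 ± 0.580 RPKM. Ptgs2, the inducible form, was the 1 of 14 genes that missed the limit, at 0.103, 0.490 and 0.608 RPKM from 7, 27 and 38 reads, with replicate 1 the lowest. Lpcat3, a phospholipid remodelling enzyme and known LXR target, had 27.9, 27.2 and 28.9 RPKM.

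**Figure D3:**
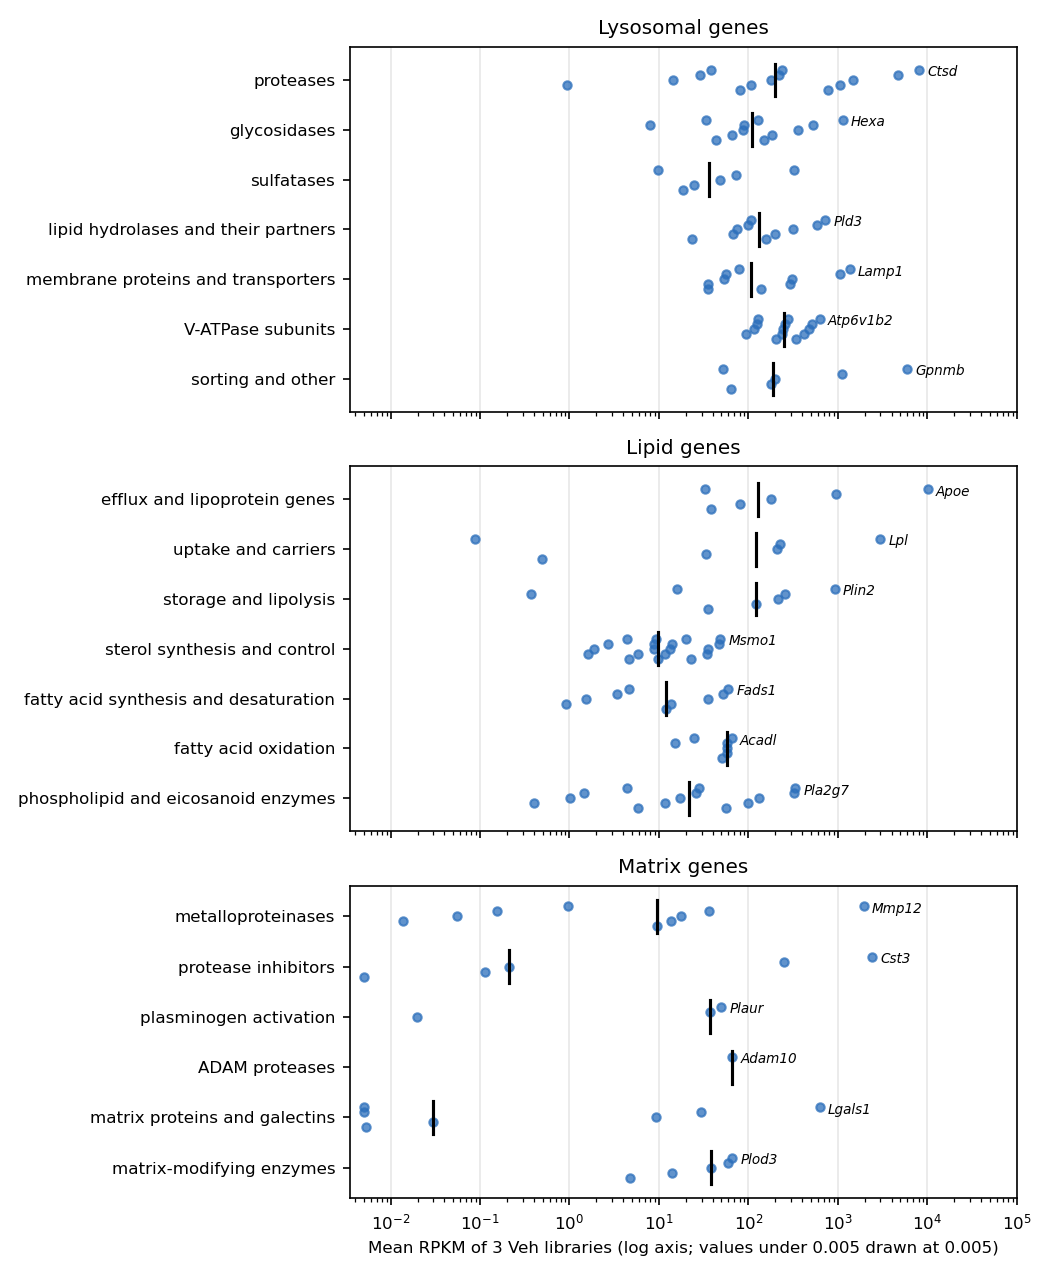
Mean RPKM over the 3 Veh libraries on a log axis for measured genes of the lysosomal, lipid and matrix lists, grouped by role, with 1 point per gene, a black bar at the median of a role and the highest gene named in every role except the sulfatases. The 14 V-ATPase subunits sit between 93.7 and 631 RPKM and the 19 sterol genes between 1.62 and 48.8 RPKM, while the matrix proteins spread from the drawn minimum of 0.005 RPKM to Lgals1 at 625 RPKM.

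In the matrix list, 19 of 30 measured genes (63.3%) were detected, beside 42.5% of all measured genes, and 7 were at the floor, beside 48.9%. The share detected was lower than in the identity, surface, lysosomal and lipid lists. Its highest metalloproteinase was Mmp12, the macrophage elastase (chr9:7347374-7360461, plus strand), which had 1982, 1947 and 1919 RPKM. The next metalloproteinase was Mmp8, a collagenase, at 36.6 ± 1.37 RPKM, before Mmp13 at 17.8 ± 1.65 RPKM and Mmp9 at 13.5 ± 0.530 RPKM. Mmp14 had 0.971 ± 0.178 RPKM, Mmp2 had 0.154 RPKM and Mmp3 had 0.0139 RPKM. Among inhibitors, Cst3, the cystatin that blocks cysteine proteases, had 2434 ± 25.4 RPKM and Timp2 had 248 ± 4.66 RPKM, while Timp3 was at the floor and Timp1 could not be measured. The plasminogen activator Plau at 35.1, 41.0 and 36.3 RPKM and its receptor Plaur at 49.8 ± 2.54 RPKM were detected, and Plat was at the floor.

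Of 14 listed matrix proteins and galectins, 7 were measured and 3 of these were detected, beside 42.5% of all measured genes. The 4 that missed the limit were at or near 0. Col4a1, Hspg2 and Nid1, components of basement membranes, were at the floor, and Col4a2 had 0.0295 RPKM. Lgals1, a galectin, had 625 ± 11.2 RPKM, Tgfbi had 29.7 ± 1.32 RPKM and Thbs1 had 11.2, 8.15 and 8.39 RPKM, with replicate 1 the highest. Fn1, Sparc, Spp1 and Lgals3 had too few unshared bases for a level. All 5 measured matrix-modifying enzymes were detected, beside 42.5% of all measured genes. The highest of the 5 were the collagen hydroxylases Plod3 at 65.8 ± 0.991 RPKM and Plod1 at 59.3 ± 0.281 RPKM. The disintegrin protease Adam10, the 1 measured member of its class, had 65.6 ± 1.37 RPKM.

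In the list of secreted products, which leaves out Lyz2, Apoe, Lpl and Cst3, the complement genes C1qb and C1qc were the highest. C1qa at 827 ± 36.6 RPKM was the lowest of the 3 C1q chains, and properdin (Cfp) had 237 ± 6.02 RPKM. C3 differed between libraries, at 36.0, 39.2 and 52.9 RPKM with replicate 3 the highest. Of the chemokines, Ccl6 at 954, 1013 and 958 RPKM and Ccl9 at 416 ± 7.98 RPKM stood far above Ccl2 at 2.73 ± 0.343 RPKM and Ccl7 at 0.442 RPKM. Tgfb1 had 252 ± 6.88 RPKM. In the iron list Hmox1, which degrades heme, had 256 ± 9.56 RPKM, the iron exporter Slc40a1 had 67.5 ± 4.89 RPKM and the transferrin receptor Tfrc had 16.03 ± 0.474 RPKM.

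The resting label was checked with genes known to be induced by LPS, interferon or interleukin 4. Of 14 measured LPS-inducible genes, 4 were detected, which is 28.6% beside 42.5% of all measured genes. These were the chemokines Ccl3 at 62.3, 62.7 and 68.8 RPKM, Ccl4 at 32.6 ± 3.47 RPKM, Ccl5 at 14.9, 22.2 and 21.6 RPKM and Cxcl2 at 5.02 ± 0.764 RPKM. Il1b had 0.595, 1.36 and 2.65 RPKM from 13, 24 and 53 reads, Il6 had 0, 3 and 5 reads, and Ifnb1 had 0 reads in all libraries. For Ifnb1, 0 reads allow a level of up to 0.182, 0.226 and 0.199 CPM in replicates 1, 2 and 3, with counting error alone considered. All 10 measured interferon-stimulated genes were detected, beside the same 42.5%, with a median of 14.8 RPKM. Of 9 measured interleukin 4 genes, 2 were detected, again beside 42.5%. These were Mrc1 and Mgl2, the latter at 1.46 RPKM, and Retnla had 0 reads. Of 15 cell cycle genes, 14 were detected, beside 42.5% of all measured genes. The list had a median of 6.65 RPKM, and only Pcna, the replication clamp, lay over 100 RPKM, at 324 RPKM. The proliferation marker Mki67 had 5.71 RPKM. Xist had 550, 548 and 544 CPM and the Y-linked genes Ddx3y, Uty, Kdm5d and Eif2s3y had 0 reads, and the study states that the mice were female.

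The 3 libraries differed little in most genes. Over the 6441 measured genes with a mean of at least 10 CPM, the median coefficient of variation (CV, the SD over the mean) was 3.58%. The CV expected from counting error at each gene's mean had a median of 3.40%. A CV taken from 3 libraries tends to fall below its expected value, so these medians do not measure the excess. The common dispersion from edgeR, over 6612 genes of at least 10 CPM, measured or not, came to a CV of 3.60% beyond counting error. In 384 genes the CV exceeded 10% and in 32 genes, or 0.497%, it exceeded 20%. Of these 32, 26 had their lowest level in replicate 1 and 22 their highest in replicate 2, whereas over all 6441 genes replicate 1 was the lowest in 31.9% and replicate 2 the highest in 32.96%. A chi-square test of the counts over genes gave 3.56, 2.78 and 2.75 per degree of freedom for the 3 pairs of libraries, more than sampling alone gives, so they were counted as 3 samples.

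**Figure D4:**
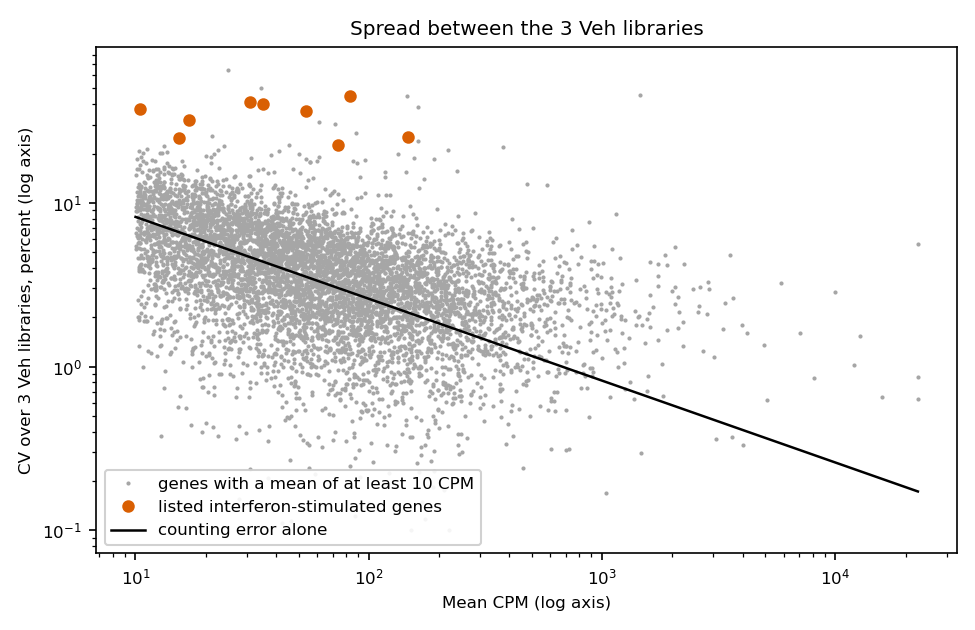
CV over the 3 Veh libraries against mean CPM, both on log axes, for 6441 measured genes with a mean of at least 10 CPM. The black line is the CV that counting error alone gives, and the orange points, the 9 listed interferon-stimulated genes above that minimum, lie between 22.7% and 44.9%.

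Interferon-stimulated genes were among the most variable. All 10 measured members of the list were detected, beside 42.5% of all measured genes, and all 10 were lowest in replicate 1. The median ratio of the 10 genes to their own mean was 0.588 in replicate 1, 1.29 in replicate 2 and 1.11 in replicate 3. Ifit2, which binds RNA and restricts viruses, had 690, 1523 and 1387 reads, or 41.9, 115 and 91.9 CPM. Rsad2 (viperin) had 32.5, 71.1 and 57.9 CPM, Isg15, a ubiquitin-like modifier, 10.7, 20.3 and 19.8 CPM, and Oasl2 105, 174 and 162 CPM. The ratio of the highest to the lowest library ran from 1.57 to 2.87 over the 10 genes, beside a median of 1.04 over the lysosomal proteases. Of the LPS-inducible genes, 11 of 14 were also lowest in replicate 1, on few reads in most. The part of these differences in the other levels was not tested. No listed gene of the identity, lysosomal or matrix programs is among the 20 genes with the highest CV, but some lie below that cut. Thbs1 had a CV of 18.5% and was highest in replicate 1. Aif1 and Fcgr1 had 15.9% and 15.5% and were lowest in replicate 1. Lowest in replicate 1 were 10 of 25 measured identity, 20 of 72 lysosomal and 11 of 30 matrix genes. The share over the 6441 genes of at least 10 CPM was 31.9%.

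**Figure D5:**
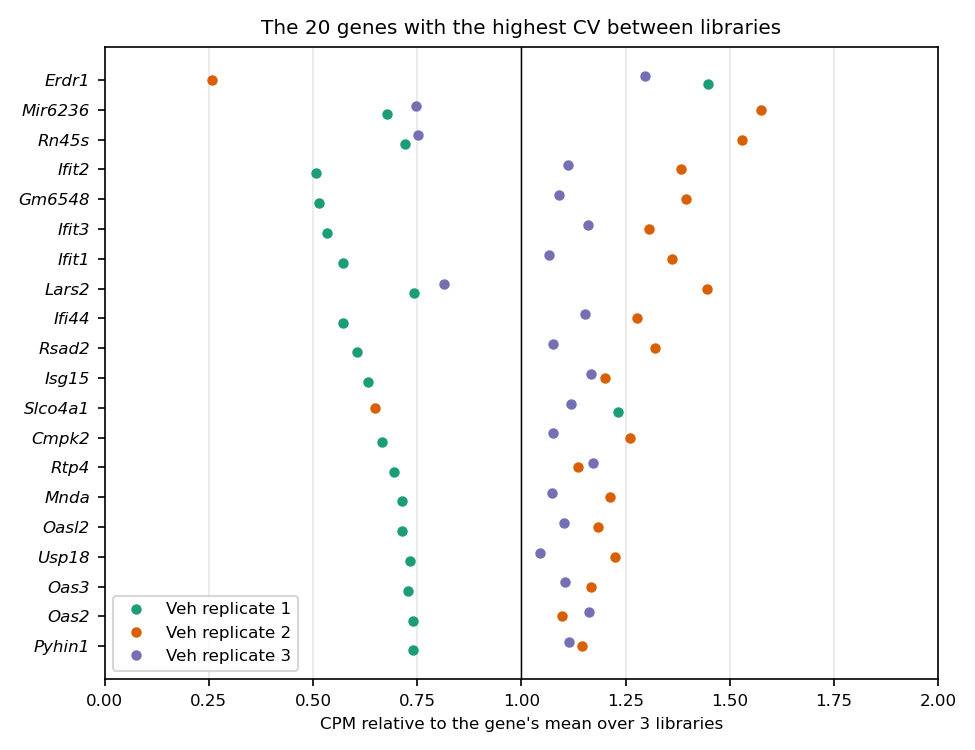
CPM in each Veh library relative to the gene's mean over the 3 libraries, for the 20 measured genes with the highest CV and a mean of at least 10 CPM. Replicate 1 is the lowest point in most interferon-stimulated genes such as Ifit2, Ifit3 and Rsad2, whereas Erdr1 and Slco4a1 are lowest in replicate 2.

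In some other genes with a high CV, replicate 2 stood apart from replicates 1 and 3. Erdr1, annotated near the end of chromosome Y from 90785442, had 591, 85 and 485 reads, with replicate 2 the lowest and the largest CV of all at 64.7%. The Y-linked genes Ddx3y, Uty, Kdm5d and Eif2s3y, by contrast, had 0 reads. Rn45s, the precursor of ribosomal RNA, which should be scarce after selection of polyadenylated RNA, had 17244, 29559 and 16461 reads, or 1047, 2223 and 1091 CPM. Mir6236 with 384, 721 and 388 reads and Lars2 with 1979, 3111 and 1986 reads were highest in replicate 2 as well, while replicates 1 and 3 were close to each other. The differences in Rn45s and in interferon-stimulated genes thus separated the libraries in different ways. In Rn45s replicate 2 was the highest and replicates 1 and 3 were close. In the interferon-stimulated genes replicate 1 was the lowest, at a median ratio of 0.588 to the gene's mean. Replicate 2, at 1.29, lay above replicate 3, at 1.11.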

How the data were processed

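RNA-seq of BMDMs was analysed in the 3 Veh samples. The authors removed adaptors (cutadapt), mapped reads to mm10 transcripts (HISAT2) and counted them on RefSeq genes (featureCounts), and the raw counts were deposited, in a table that has 1 row per RefSeq transcript. The deposited tables of the authors' comparisons (p-values, RPKM ratios and gene names) were not used. Rows of a symbol were summed, CPM used the library total of 13299044 to 16467983 reads, and RPKM used the length of the longest row. Unshared bases were computed from exon positions, and rows with none (6696) held 0 reads. No test between groups was made, since 1 group has no contrast. A chi-square of the counts served only to check that the libraries are separate samples. Values are mean ± SD. edgeR 4.0.16 and DESeq2 1.42.0 (R 4.3.3) gave alternative scalings and a dispersion, tested on simulated data. Intervals and floors cover counting error only. The libraries and gene lists were chosen with earlier results of these data known. Named genes are the label markers, the top 20 by RPKM and by CPM, the highest, floor and undetected members of each list, the 10 with the highest CV, and genes the study names for these treatments. Some of these are not reported here.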

Additional observations from a re-analysis of the deposited data

How the results depend on the processing

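The number of detected genes and of list members detected stayed within 1.5 times of the reported value with limits of 0.5 CPM, 5 CPM or 10 reads and without each replicate in turn. For list members detected, TMM factors, DESeq2 size factors and a gene's row with the most reads alone were not tried. With each of them the number of detected genes stayed within 1.5 times, and the levels of 38 top or named genes stayed within 1 SD. For the 19248 of 24061 symbols that have 1 row, the choice of row cannot change the level. The summed list levels with TMM or DESeq2 factors also stayed within 1 SD, and the median CV was 3.58% and 3.59%. Without each replicate in turn, 8892 to 8911 genes were detected in the 2 remaining libraries. Shares of counts rose slightly without ribosomal protein genes, to 14.3%, 31.8% and 65.2% for the top 10, 100 and 1000 genes, and were 14.1%, 31.3% and 65.5% over rows with at least 50% of their bases unshared. The median level over all measured listed genes, 26.5 RPKM, was 27.8 per kilobase of unshared bases and 58.1 as TPM. On the scale of unshared bases the summed level was 38790 for the lysosomal, 18706 for the lipid and 5717 for the matrix list. As TPM, which sets the sum over all genes to a fixed total, it was 79307 for identity, 2210 for other cells, 1895 for state, 40151 for surface, 82932 for lysosome, 40149 for lipid, 12526 for matrix, 14394 for secreted and 67600 for abundant genes. The order of the lists by TPM was that by RPKM. Within a library this order cannot change, because TPM divides every RPKM by the same number. No paired analysis was possible because the values come from 1 group and from no test.

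Depth limits genes near the floor, where 1 CPM is 13.3 to 16.5 reads, such as Il1b, whose mean ranged from 0.977 to 2.00 RPKM when each replicate was left out. Genes whose transcripts overlap are limited by shared bases rather than by depth. Only RNA was measured, in 3 cultures, and the level of a surface, lysosomal or secreted protein was not.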
